A study of Sus scrofa with 5 samples.

Results

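The genes described here were 7 members of 2 families of stress-responsive regulators, the C/EBP transcription factors CEBPA, CEBPB, CEBPD and CEBPG and the RNA-binding proteins ZFP36, ZFP36L1 and ZFP36L2. They were matched by symbol, and 7 of 7 were found among the 35670 features of the nucleus count tables. The members were selected on measured values of these same pigs, their difference between diets within cell classes and, for ZFP36L2, the contrast of smooth muscle with endothelial nuclei, so those values are given as a description, and the calls on the members support nothing. The tissue was abdominal aorta of Ossabaw pigs, all castrated males and 12 months old when their diets began. The obese group (3 libraries) received an HF/HFru diet and the control group (2 libraries) a chow diet. The treatment label puts the diets at 6 months and the design text at 9 months, and the series title speaks of atherosclerotic and healthy vessels, but no lesion measure was used here. For each library a frozen piece of vessel about 50 mm long was dissociated, DRAQ5-stained nuclei were sorted, and RNA was counted by unique molecular identifier (UMI), a tag that counts each captured molecule once.

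C/EBP proteins bind DNA as dimers through a basic leucine zipper. CEBPA drives myeloid and fat cell differentiation, CEBPB and CEBPD are induced by inflammatory cytokines and drive acute phase genes, and CEBPG, which has no strong activation domain of its own, pairs with other C/EBP proteins and with ATF4 in the response to amino acid and protein folding stress. The ZFP36 proteins carry tandem CCCH zinc fingers that bind AU-rich elements in the 3' untranslated region (UTR) of short-lived mRNAs and recruit the CCR4-NOT deadenylase, which shortens the poly(A) tail and starts decay. In the vessel wall CEBPB and CEBPD are known to be induced by interleukins in smooth muscle cells, and ZFP36 is known from the endothelium and macrophages of lesions. ZFP36, also called tristetraprolin, is itself an immediate early gene whose mRNA appears quickly after a stimulus and is cleared quickly.

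After filters and doublet removal 41981 nuclei remained, 5437 to 11072 per library, with a median of 1807.5 to 2681 UMIs each and 20239984 to 42672076 UMIs per library. No batch is named in the labels, and each pair of libraries shared 10 to 29 cell barcodes. Clusters were named from marker genes alone and are therefore written with "-like". Smooth muscle-like nuclei filled 8 clusters (3479, 4583 and 5251 nuclei in obese pigs 1 to 3, and 8907 and 4088 in control pigs 1 and 2), and all 11 smooth muscle markers were detected. Its largest cluster was 7 in obese pig 1, 6 in obese pig 2, 1 in obese pig 3, 0 in control pig 1 and 2 in control pig 2, so different clusters held most of it in the 2 groups. RRAD and JUN were among the leading genes of cluster 1, HSPB1 and HBB among those of cluster 6, and ACTN2, a striated muscle marker, led cluster 0 together with HBB. An unnamed cluster led by heat shock genes, nearest to smooth muscle by its markers, was kept apart (899, 1130 and 1352 nuclei in the obese pigs, 27 and 479 in the control pigs). None of the 7 members was among the 3000 genes used for clustering.

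Levels are given in CPM, the UMIs of a gene per 1000000 UMIs of that class in that pig. Differences between diets are log2 fold changes with their standard error (SE) from an edgeR quasi-likelihood fit of the class sums over all genes, and a gene is called where its Benjamini-Hochberg adjusted p was under 0.05. In smooth muscle-like nuclei 4 of the 6 members with enough counts to be fitted were called, beside 0.464% of the 15950 genes tested. Every obese pig lay above both control pigs for 5 of the 6, beside 18.8% of all genes. The smooth muscle-like calls on the members rested on particular pigs: 4 became 0 without obese pig 1, without control pig 1 or without control pig 2, and 1 with the replicate number as a block. Without cluster 0, whose leading genes include ACTN2, 4 were still called.

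Among the C/EBP genes, CEBPB stood at 43.6, 40.2 and 40.3 CPM in the smooth muscle-like nuclei of obese pigs 1, 2 and 3, against 6.98 and 13 CPM in the control pigs (log2 fold change 1.99, SE 0.33). The 3 obese pigs were nearly alike, and the lowest of them was above the higher control pig. CEBPD, the partner that rises later in acute inflammation, stood at 26.5, 36.1 and 32.2 CPM against 6.24 and 6.29 CPM (2.27, SE 0.28), again with no overlap. CEBPG gave 12.8, 15.1 and 10.3 CPM against 12.5 and 11.5 CPM (0.01, SE 0.27), and the control pigs lay inside the range of the obese pigs. CEBPA was close to absent from this class, with 15 UMIs in all 3 obese pigs together and 0 in the control pigs. Against a floor of 3 counts over the 46829913 control UMIs of the class, the pooled obese level was 7.96-fold higher. This figure leaves out counting error in the 15 UMIs and is no lower limit, and 11 of the 15 UMIs came from obese pig 2. The summed level of 12 macrophage markers in smooth muscle-like nuclei was also highest in that pig, at 117 CPM, beside 15.5 and 24.5 CPM in the other obese pigs and 10.5 to 11.5 CPM in the control pigs, and its part in the CEBPA counts was not tested.

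Of the ZFP36 family, ZFP36L2 had the largest fold change of the members fitted in smooth muscle-like nuclei. It stood at 124, 177 and 224 CPM in obese pigs 1, 2 and 3 and at 13.5 and 19.9 CPM in the control pigs (3.34, SE 0.35). Even the lowest obese pig was far above both control pigs. ZFP36 stood at 194, 113 and 228 CPM against 15.3 and 36.1 CPM (2.75, SE 0.46), with obese pig 2 the lowest of the obese pigs and no overlap. For ZFP36L1 the values were 63.8, 70.4 and 62.9 CPM against 21.2 and 32.8 CPM (1.21, SE 0.26). It was not called, although the groups did not overlap. The summed CPM of the 23 immediate early genes found among the features was 1741 to 4726 in the obese and 1017 to 1223 in the control smooth muscle-like nuclei, while the sum of 14 heat shock genes overlapped (974 to 1754 and 418 to 1039). These sums leave out the unnamed cluster led by heat shock genes (899, 1130 and 1352 obese and 27 and 479 control nuclei). HSP70.2, a leading gene of that cluster, is not on the heat shock list. Markers of 3 other cell types were lower in these nuclei of the obese pigs. Pericyte markers stood at 662 to 802 against 950 to 1133 CPM and fibroblast markers at 410 to 722 against 752 to 857 CPM. Striated muscle markers stood at 43.4 to 122 against 152 to 243 CPM. Macrophage markers were higher in every obese pig, and the sums of the remaining cell types overlapped, as for endothelial markers (618 to 933 against 634 to 900 CPM). The mean mitochondrial share was 0.0079% to 0.0087% in the obese and 0.0051% to 0.0052% in the control libraries. The part of these differences in the members' values was not tested.

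**Figure D1:**
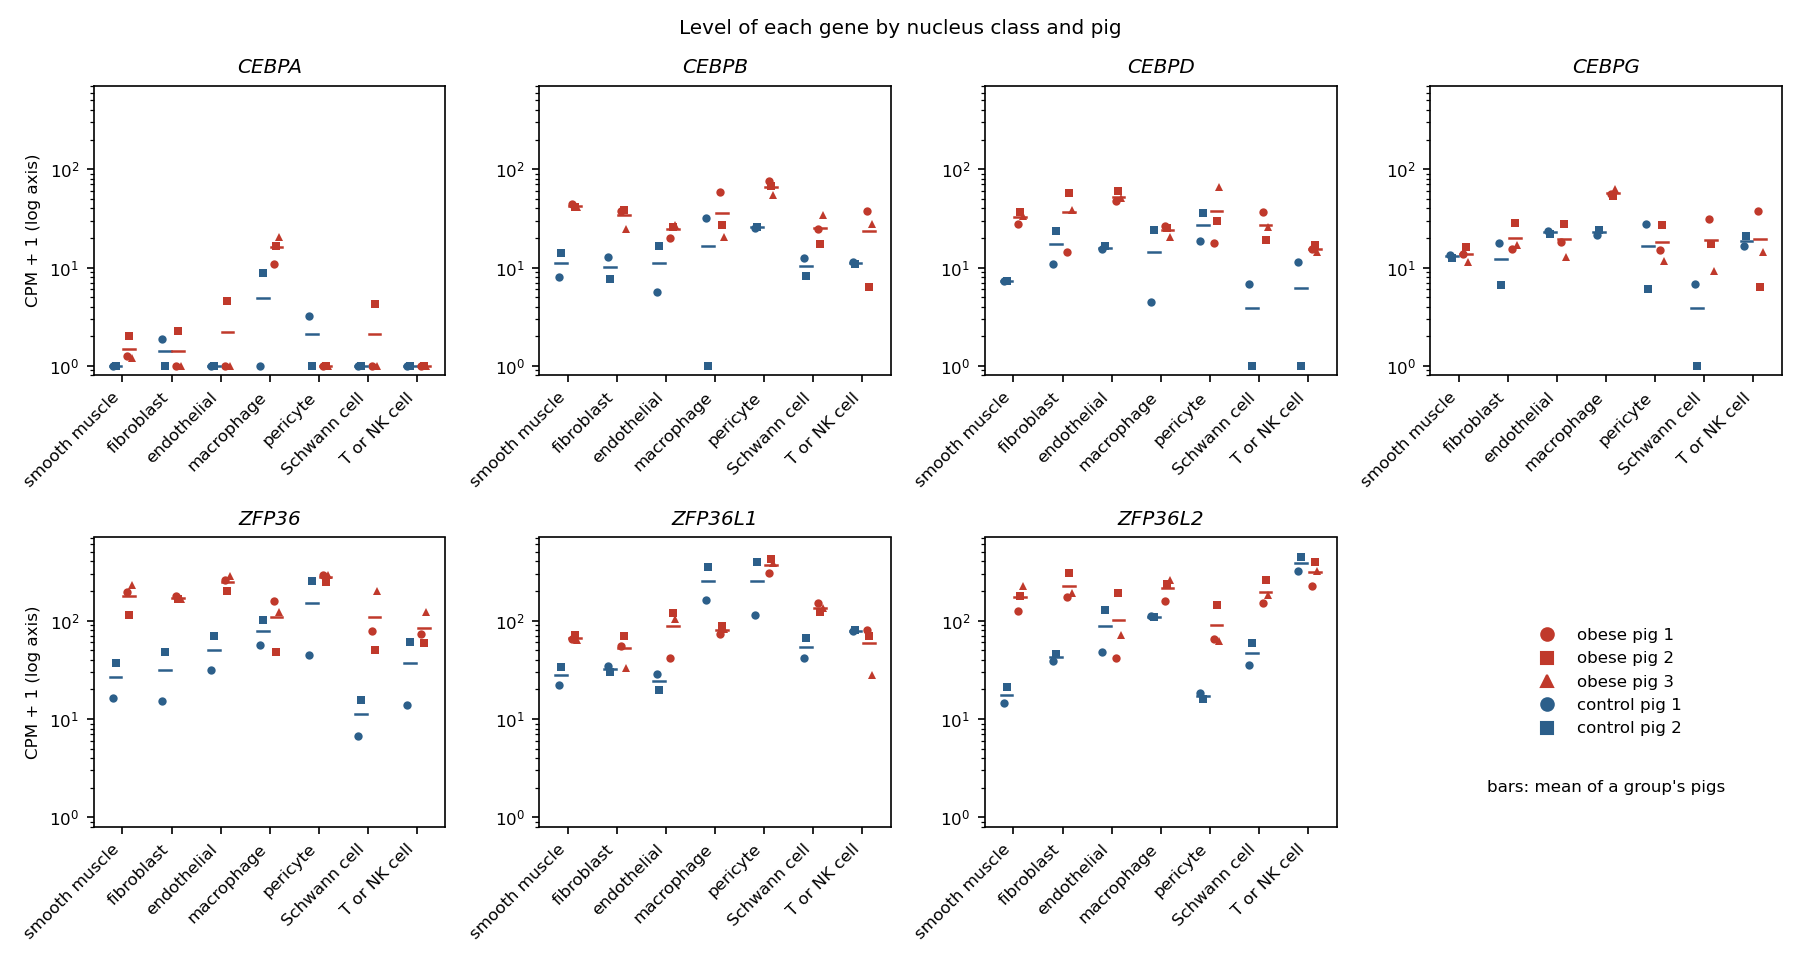
Level of each member (CPM + 1, log axis) in 7 nucleus classes, with 1 point per pig, obese and control pigs in separate colours, and a bar at each group mean. In smooth muscle-like nuclei the obese points of ZFP36L2 lie at 124 to 224 CPM and the control points at 13.5 and 19.9 CPM, while in T or NK cell-like nuclei the 2 groups overlap.

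Fibroblast-like nuclei were fewer, 518, 565 and 370 in the obese pigs and 718 and 376 in the control pigs. There 1 of 6 members fitted, ZFP36L2, was called, beside 0.169% of 8901 genes, and every obese pig lay above both control pigs for 3 of the 6, beside 12.8% of all genes. ZFP36L2 stood at 173, 304 and 188 CPM against 38.0 and 44.8 CPM (2.44, SE 0.32), highest in obese pig 2 and without overlap. This call was lost without obese pig 1 and without either control pig. ZFP36 gave 176, 164 and 166 CPM against 14.3 and 47.0 CPM (2.58, SE 0.45), and CEBPB 36.8, 37.8 and 23.9 CPM against 11.7 and 6.72 CPM (1.78, SE 0.41). Neither was called, and in neither did the groups overlap in the class. The other 3 overlapped between diets: CEBPD at 13.3 to 56.7 against 9.94 and 22.4 CPM (1.27, SE 0.59), ZFP36L1 at 31.9 to 68.1 against 29.1 and 33.3 CPM (0.73, SE 0.34) and CEBPG at 14.3 to 27.1 against 5.60 and 16.9 CPM (0.69, SE 0.50). CEBPA had 2 UMIs in each group. The class joined cluster 9 (401, 317 and 325 obese and 610 and 332 control nuclei) and cluster 16 (117, 248 and 45 against 108 and 44), which the pigs filled unequally. In cluster 9 alone 2 members were called, ZFP36L2 (2.68) and ZFP36 (3.19), and in cluster 16 alone 0 members and 0 genes were called. ZFP36 in cluster 16 was 275, 254 and 414 against 42.0 and 327 CPM and CEBPB 57.3, 48.1 and 20.7 against 36.0 and 36.3 CPM, so both overlapped there. ZFP36L2 stayed without overlap in cluster 16, at 141, 309 and 197 against 57 and 133 CPM, as for 12.7% of genes with at least 50 counts. In fibroblast-like nuclei immediate early genes summed to 2804 to 5823 CPM in the obese and 1124 to 1469 CPM in the control pigs, and heat shock genes to 920 to 2928 against 402 to 841 CPM. The class's own fibroblast markers were lower, at 1388 to 1902 against 2101 to 2330 CPM, with PI16 called lower, and pericyte markers stood at 254 to 374 against 428 to 439 CPM. Adipocyte (3.42 to 8.17 against 20.1 to 23.8 CPM) and striated muscle markers (13.7 to 24.5 against 25.7 to 38.5 CPM) were lower as well. Kidney tubule markers were higher, at 33.0 to 52.9 against 17.9 to 27.7 CPM, and the sums of the remaining cell types overlapped. What part these had in the members' values was not tested.

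The endothelial-like class joined 2 clusters that the groups filled unequally. Cluster 14 (median 1214 UMIs) held 159, 227 and 102 nuclei of the obese pigs and 171 and 56 of the control pigs, and cluster 17 (median 7100 UMIs) held 42, 24 and 22 against 251 and 146, so values are given for the class and for each cluster. In the class, 3 of the 6 members fitted were called, beside 8.35% of 6756 genes, and 4 of the 6 had every obese pig above both control pigs, beside 19.2% of all genes. In cluster 14 alone and in cluster 17 alone 0 members were called (0 and 49 of all genes), and without control pig 1 or control pig 2 the class gave 0 and 1 called members.

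ZFP36 in endothelial-like nuclei stood at 261, 201 and 280 CPM in the obese pigs and 30.8 and 68.0 CPM in the control pigs (2.43, SE 0.42). Within cluster 14 it was 249, 203 and 342 against 56.2 and 0 CPM, and within cluster 17 it was 272, 189 and 153 against 26.8 and 73.7 CPM, so the obese pigs were above the control pigs in both, as for 13.3% and 9.32% of genes with at least 50 counts there. CEBPD also kept its direction, at 46.0, 58.8 and 49.6 against 14.4 and 15.4 CPM in the class (1.86, SE 0.38), and its fold change was 1.84 in each cluster alone. ZFP36L1 stood at 40.2, 119 and 102 CPM against 27.7 and 18.6 CPM in the class (1.95, SE 0.47), but within cluster 14 it was 68.0, 140 and 134 against 115 and 52.6 CPM (0.38) and within cluster 17 it was 11.7, 0 and 35.9 against 13.6 and 15.8 CPM. The groups thus overlapped in both clusters for ZFP36L1. CEBPB gave 19.2, 24.9 and 26.3 CPM against 4.69 and 15.4 CPM (1.39, SE 0.61) and CEBPG 17.2, 26.7 and 11.7 CPM against 22.6 and 21.1 CPM (-0.13, SE 0.45), neither called.

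ZFP36L2 differed most between smooth muscle-like and endothelial-like nuclei. Its endothelial-like levels were 40.2, 189 and 70.0 CPM in the obese pigs and 46.9 and 129 CPM in the control pigs (0.26, SE 0.58). Obese pig 2 was the highest and obese pig 1 the lowest of all 5 pigs, with both control pigs between them. The direction was not stable: the fold change was 1.02 in cluster 14 alone, -0.48 in cluster 17 alone and -0.52 without obese pig 2. Smooth muscle markers in endothelial-like nuclei summed to 1176 to 2227 CPM in the obese and 715 to 951 CPM in the control pigs, with LMOD1, MYOCD and MYH11 called higher. Fibroblast markers summed to 374 to 429 against 906 to 955 CPM. Also higher without overlap were lymphatic endothelial markers (59.4 to 160 against 20.2 to 23.8 CPM, PROX1 called) and mast cell markers (17.2 to 67.7 against 3.51 to 4.05 CPM, KIT called). Macrophage, pericyte, B or plasma cell and kidney tubule markers were higher as well. Schwann cell (114 to 230 against 301 to 715 CPM) and neuron markers were lower. The class's own markers overlapped in sum, with 2 called higher and 1 lower. The part of all these markers in the members' values was not tested.

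The difference between classes was fitted directly, with the pig as a block. For ZFP36L2 the diet effect in smooth muscle-like nuclei exceeded that in endothelial-like nuclei by 3.21 on the log2 scale (SE 0.45). It was the 1 member of 6 called, beside 2.37% of 15127 genes, and the call was kept in all 12 alternatives run, with differences of 2.40 (cluster 14 alone) to 3.99 (cluster 17 alone). In 1 of the 12, clustering without the members, the outcome was fixed, since no member was among the genes used for clustering and the classes were the same. The median difference over all genes was 0.12. For the other members the difference was 0.70 for CEBPB (SE 0.52), 0.55 for CEBPD (SE 0.45), 0.45 for ZFP36 (SE 0.35), 0.33 for CEBPG (SE 0.53) and -0.45 for ZFP36L1 (SE 0.46). The value for ZFP36L1 became 0.87 and 1.38 against clusters 14 and 17 alone. Between smooth muscle-like and fibroblast-like nuclei the ZFP36L2 effects differed by 0.92 (SE 0.31), with 0 members called (0.013% of 15375 genes). Between endothelial-like and fibroblast-like nuclei they differed by -2.14 (SE 0.47), also with 0 members called (0.905% of 9949 genes).

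**Figure D2:**
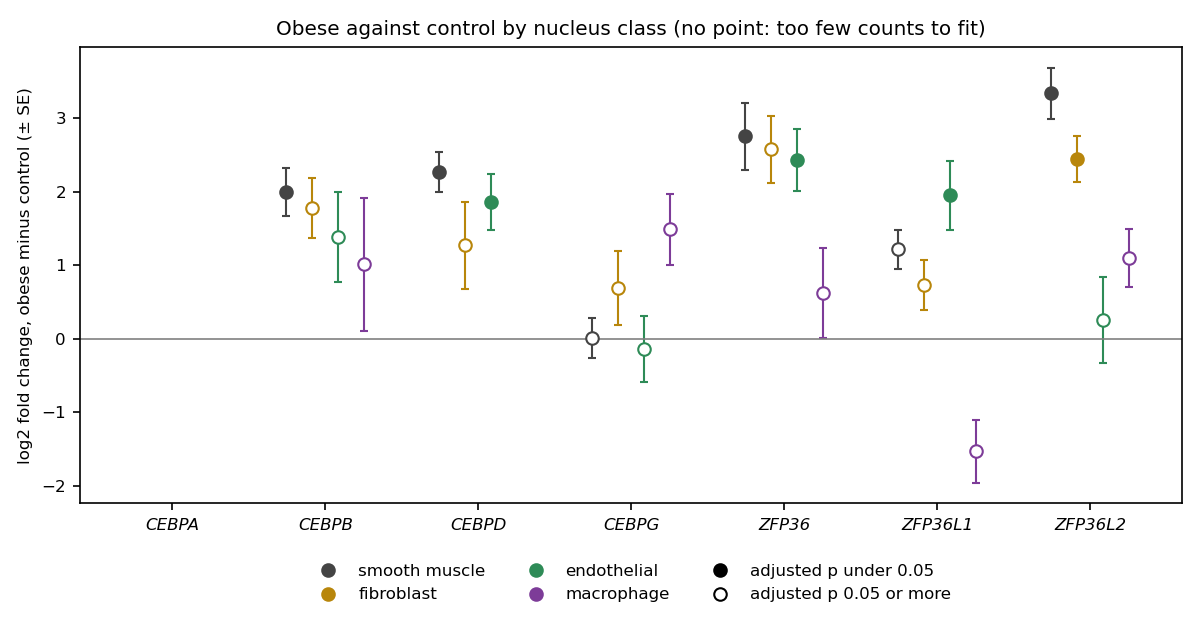
Log2 fold change of each member fitted (obese minus control, vertical axis) with its SE as a bar, in 4 nucleus classes. Filled points have an adjusted p under 0.05 in the edgeR fit. ZFP36L2 lies at 3.34 in smooth muscle-like and at 0.26 in endothelial-like nuclei, and CEBPG lies near 0 in both.

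Macrophage-like nuclei were few in the control pigs (82 and 39, against 407, 1374 and 143 in the obese pigs). Of 5 members fitted, 0 were called by edgeR, beside 2.15% of 5916 genes. In that fit 3 had an unadjusted p under 0.05, as had 1037 of the 5916 genes. By the DESeq2 Wald test 1 was called, ZFP36L1, beside 408 genes in all. This was the class where ZFP36L1 lay lower in the obese pigs, at 72.6, 86.5 and 81.3 CPM against 162 and 348 CPM (-1.53, SE 0.43), with every obese pig below both control pigs as for 20.5% of all genes. ZFP36L2 gave 159, 233 and 255 CPM against 110 and 108 CPM (1.10, SE 0.40) and CEBPG 54.3, 52.9 and 61.7 CPM against 20.6 and 23.2 CPM (1.49, SE 0.49). In both, every obese pig was above the control pigs, as for 17.8% of all genes. ZFP36 at 158, 46.8 and 121 against 55.1 and 100 CPM (0.62, SE 0.61) and CEBPB at 58.1, 26.3 and 19.6 against 31.0 and 0 CPM (1.01, SE 0.90) overlapped. CEBPD, not fitted for its low counts, overlapped as well, at 25.2, 24.4 and 19.6 against 3.44 and 23.2 CPM. The summed level of 9 B or plasma cell markers was 345 to 572 CPM in the obese and 819 to 3148 CPM in the control macrophage-like nuclei, and among the macrophage markers MSR1 was called higher and MRC1 lower. What part this had in the members' values was not tested. The groups also filled the class differently: at resolution 2.0, 37, 725 and 16 of its nuclei in the obese pigs and none in the control pigs fell in a finer cluster led by genes such as ATP6V0D2 and GPNMB. Another finer cluster held 379, 659 and 128 nuclei of the obese and 82 and 39 of the control pigs, and it was left without a name because its marker levels were nearest to B or plasma cells (PAX5) while its leading genes held more macrophage markers (CD163 and CSF1R). Without the nuclei of the obese pigs' own finer cluster, ZFP36L1 was 79.0, 151 and 78.4 against 162 and 348 CPM (-1.19, SE 0.46), still below both control pigs as for 19.3% of genes. Again 0 of 5 members were called, with 3 at an unadjusted p under 0.05 (158 of 5478 genes called), and ZFP36, at 172, 117 and 134 against 55.1 and 100 CPM, no longer overlapped, as for 18.1% of genes.

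CEBPA, the myeloid member, had 121 of its 151 UMIs in macrophage-like nuclei. Its level there was 9.94, 15.6 and 19.6 CPM in the obese pigs and 0 and 7.73 CPM in the control pigs, which held a single UMI between them. The pooled ratio of obese to control was 6.26, with a 95% counting interval of 1.10 to 249, so the size of the difference was poorly fixed at this depth. As a mean over the 3 obese pigs, CEBPA UMIs were found in 4.41% of macrophage-like nuclei, or in 1.01% ± 0.61 (SD, n = 3) after thinning each nucleus to 1000 UMIs. The control means were 1.28% before and 1.67% ± 2.36 (SD, n = 2) after thinning, which left 83 control nuclei, 1 of them with a UMI, so the thinned shares did not differ beyond the spread between pigs. In T or NK cell-like nuclei no CEBPA UMI was counted in any pig. With 23 to 108 thinned nuclei per pig that allows 2.78% to 13% of nuclei with a UMI, and sets no limit on nuclei that express the gene. In the other classes fitted it had 2 to 15 UMIs in the obese pigs together.

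Across all nuclei of a pig, 0 of 7 members were called by edgeR, beside 0.00499% of 20052 genes. In that fit 6 of the 7 had an unadjusted p under 0.05, as had 2826 of the 20052 genes. The DESeq2 Wald test called 6, beside 795 genes in all. In this sum the mixture of classes, which differed between the pigs, could not be told apart from the level within them.

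The order of the 7 classes with at least 20 nuclei in every pig differed between members. In the control pigs ZFP36L2 was lowest in pericyte-like (mean 16.3 CPM) and smooth muscle-like nuclei (16.7 CPM), whose ranges overlapped. Fibroblast-like nuclei (41.4 CPM) lay above both without overlap. Schwann cell-like (46.4 CPM), endothelial-like (87.8 CPM) and macrophage-like nuclei (109 CPM) followed, each overlapping the class before it. T or NK cell-like nuclei stood apart at 382 CPM (SD 86.3, n = 2). In the obese pigs the order ran from pericyte-like (89.0 ± 46.1 CPM, SD, n = 3) through endothelial-like (99.7 ± 78.6), smooth muscle-like (175 ± 49.9), Schwann cell-like (196 ± 55.1), macrophage-like (216 ± 50.3) and fibroblast-like (222 ± 72.1) to T or NK cell-like nuclei (314 ± 85.7), with every neighbour overlapping. In T or NK cell-like nuclei the single pigs ran from 225 to 443 CPM, and the 2 groups overlapped.

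ZFP36L1 was highest in pericyte-like nuclei of the obese pigs, at 367 ± 58.9 CPM (SD, n = 3), and the lowest of these pigs was above every other class in every obese pig. Among control pigs its highest means were in macrophage-like (255 CPM) and pericyte-like nuclei (251 CPM, from 112 and 390 CPM), and its lowest in endothelial-like (23.2 CPM), smooth muscle-like (27.0 CPM) and fibroblast-like nuclei (31.2 CPM). The endothelial-like place held for the class only: the control pigs stood at 115 and 52.6 CPM in cluster 14 and at 13.6 and 15.8 CPM in cluster 17. ZFP36 in pericyte-like nuclei was 275 ± 26.3 CPM (SD, n = 3) in the obese pigs but 44.0 and 255 CPM in the control pigs, which therefore differed widely between themselves. Below it the ZFP36 means of the obese pigs ranked endothelial-like (247 CPM), smooth muscle-like (178 CPM) and fibroblast-like (169 CPM) above Schwann cell-like, macrophage-like (109 CPM) and T or NK cell-like nuclei (83.7 CPM). CEBPB had its highest mean in pericyte-like nuclei in both groups (24.6 CPM in the control pigs, 53.6 to 74.3 CPM in the obese pigs), where the groups did not overlap, as for 9.87% of genes with at least 50 counts. CEBPD had its highest mean under the HF/HFru diet in endothelial-like nuclei (51.5 ± 6.58 CPM, SD, n = 3), overlapping pericyte-like and fibroblast-like nuclei. CEBPG was highest in macrophage-like nuclei of the obese pigs (56.3 ± 4.72 CPM, SD, n = 3), above every other class in every obese pig, whereas in the control pigs macrophage-like and endothelial-like nuclei had nearly equal means (21.9 and 21.8 CPM).

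Levels were also read within single clusters. In the 8 smooth muscle-like clusters every obese pig was above both control pigs for ZFP36L2, ZFP36 and CEBPD in 8 of 8, for CEBPB in 7, for ZFP36L1 in 4, for CEBPA in 1 and for CEBPG in 0. The same held for 8.03% to 19.7% of all genes with at least 50 counts in those clusters. No such filter was set for the members, and the cluster counted for CEBPA held 4 of its UMIs in all. Some of these clusters were thin in a group. Cluster 6 held 32 and 65 control nuclei, and its ZFP36 levels were 189, 106 and 179 against 101 and 70.9 CPM. Cluster 2 held 35 and 22 nuclei of obese pigs 1 and 2. The ZFP36L2 contrast was widest in cluster 1, at 201, 272 and 270 CPM against 10.6 and 25.5 CPM (13.7-fold between means), and narrowest in cluster 11, at 33.0, 81.2 and 42.2 CPM against 13.5 and 18.6 CPM (3.25-fold). In the unnamed cluster led by heat shock genes ZFP36L2 was 166, 221 and 249 CPM against 0 and 55.8 CPM. Adding that cluster to the smooth muscle-like class left the ZFP36L2 fold change at 3.23 and the number of called members at 3, with ZFP36 no longer called.

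**Figure D3:**
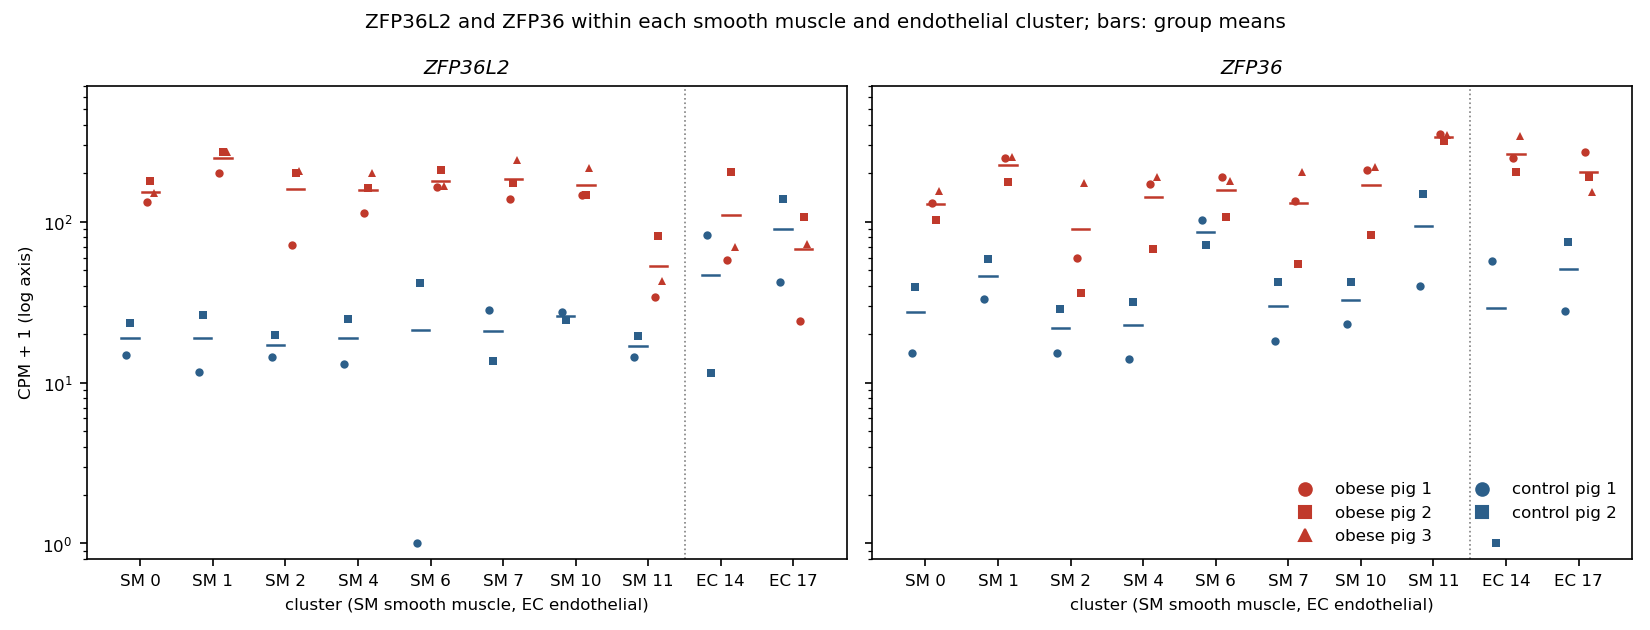
Levels of ZFP36L2 and ZFP36 (CPM + 1, log axis) in each of 8 smooth muscle-like and 2 endothelial-like clusters, 1 point per pig. For both genes every obese point lies above both control points in each smooth muscle-like cluster, and for ZFP36L2 the groups overlap in endothelial-like clusters 14 and 17.

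The share of nuclei with at least 1 UMI was compared after thinning each nucleus to 1000 UMIs, since the control libraries were deeper. This left out 3592 obese and 1879 control smooth muscle-like nuclei below that depth. ZFP36L2 was then found in 13.9% ± 2.31 (SD, n = 3) of obese and 1.61% ± 0.43 (SD, n = 2) of control smooth muscle-like nuclei, and in 21.4% and 4.59% before thinning. ZFP36 was found in 14% ± 4.77 (SD, n = 3) and 2.39% ± 1.32 (SD, n = 2), and in 23.8% and 7.01% before thinning. After thinning, the lowest obese pig was above both control pigs for both genes. In endothelial-like nuclei the thinned share of ZFP36 was 23.9% ± 6.52 (SD, n = 3) against 3.04% ± 1.45 (SD, n = 2), while that of ZFP36L2 was 9.08% ± 9.07 (SD, n = 3) against 6.38% ± 2.50 (SD, n = 2). Without thinning the ZFP36L2 share ran the other way, 16.8% against 24.0%, in a class whose deep cluster 17 came mainly from the control pigs. CEBPB and CEBPD were found in 3.80% and 2.83% of thinned obese smooth muscle-like nuclei and in 1.03% and 0.54% of control ones. CEBPG was found in 1.12% and 1.01%. UMIs of ZFP36 and ZFP36L2 were counted in every class, so no class gave a background share from free RNA for them.

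**Figure D4:**
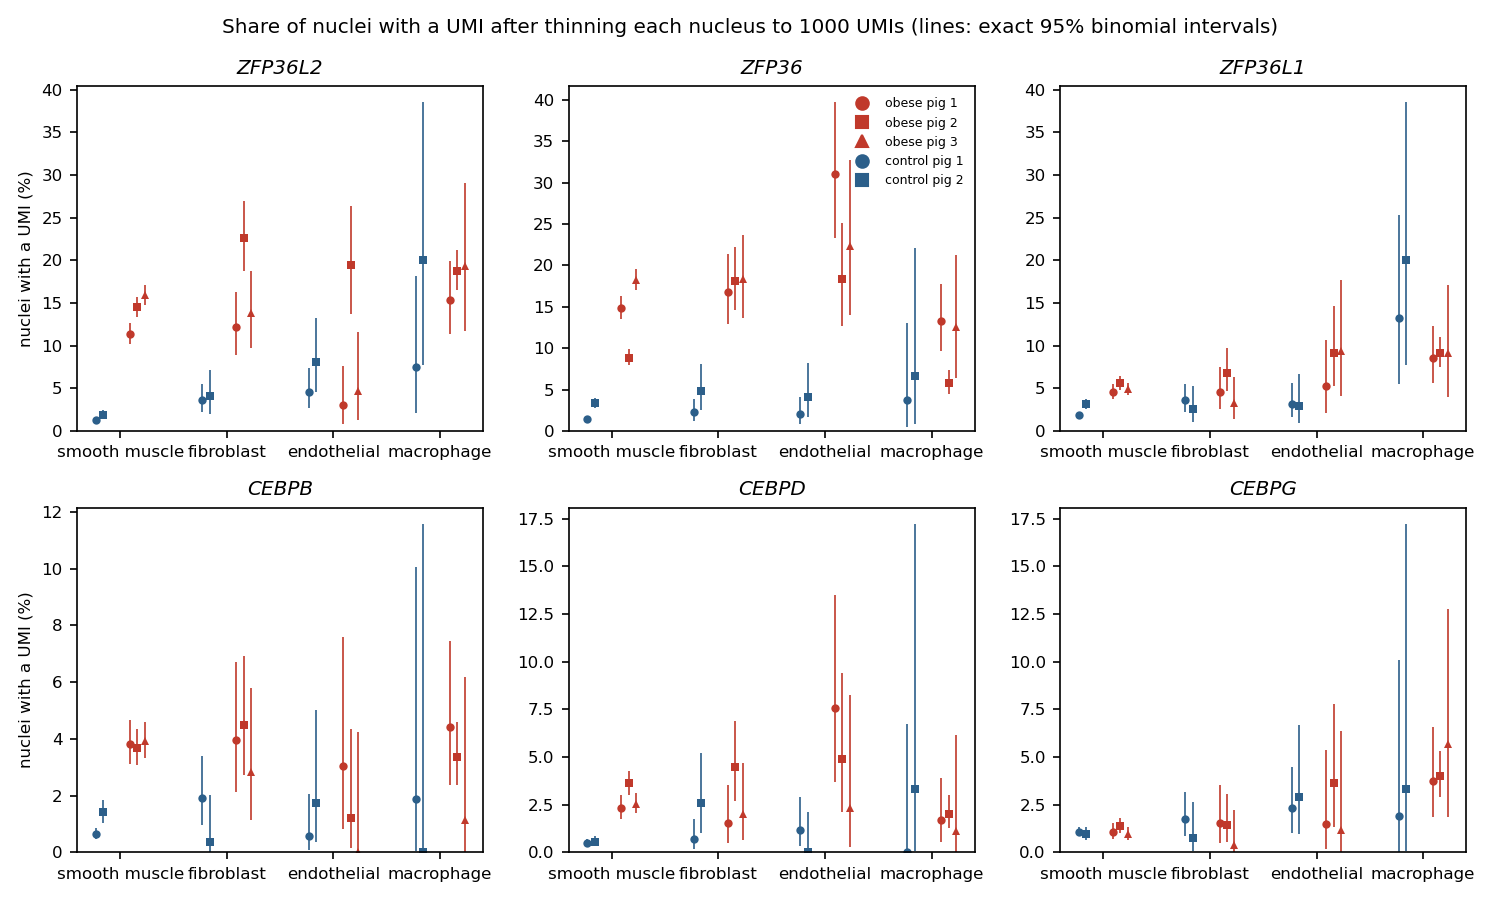
Percent of nuclei with at least 1 UMI of 6 members after thinning to 1000 UMIs, per pig, with exact 95% binomial intervals that cover counting error only, in 4 nucleus classes. In smooth muscle-like nuclei the obese pigs average 13.9% for ZFP36L2 and the control pigs 1.61%, and the intervals are widest in macrophage-like nuclei of the control pigs.

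Other genes of the same pathways were read from lists chosen with earlier results of these data known. Among genes that share dimers or DNA sites with the C/EBP proteins, 1 of 8 fitted rose in smooth muscle-like nuclei (list median 0.08, all genes 0.02). This was NFIL3, a basic leucine zipper repressor, at 26.8, 27.6 and 17.1 CPM against 6.83 and 3.42 CPM (2.13, SE 0.36). In endothelial-like nuclei 2 of 4 rose, NFIL3 (1.82) and the stress-induced factor ATF3 (3.35), and ATF3 was also the 1 of 8 called in fibroblast-like nuclei (2.67). The background there was 5.92% of genes called higher in endothelial-like, 0.382% in smooth muscle-like and 0.146% in fibroblast-like nuclei. Of the integrated stress response genes that work with CEBPG and ATF4, 0 of 18 were called in smooth muscle-like nuclei (median 0.04). In endothelial-like nuclei 2 of 10 rose, the cystine transporter SLC7A11 (3.33) and PPP1R15A (2.33), which restarts translation after stress.

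C/EBP target and acute phase genes had a median of 1.17 over 13 fitted in smooth muscle-like nuclei with 0 called, and 3.58 over 7 in endothelial-like nuclei with 5 called higher. PTGS2, the inducible cyclooxygenase, stood at 446, 60.5 and 709 CPM against 26.9 and 17.0 CPM in endothelial-like nuclei (4.31, SE 0.90). The cytokine IL6 stood at 44.1, 107 and 172 CPM against 5.08 and 7.29 CPM (4.22, SE 0.63), and its feedback inhibitor SOCS3 rose by 3.84 (SE 0.58). Obese pig 2 was low for PTGS2 but not for IL6. Of the adipogenic and metabolic C/EBP genes, 0 of 15 were called in smooth muscle-like nuclei (median 0.30), and INSR, the insulin receptor, was the 1 of 6 that rose in endothelial-like nuclei (1.96). In macrophage-like nuclei, where CEBPA was counted, 3 of 8 rose: the lipase LPL (5.96, SE 1.06), the fat cell regulator PPARG (3.54, SE 0.62) and the lipid droplet protein PLIN2 (2.85, SE 0.45), beside 1.32% of genes called higher. PPARG stood at 284, 785 and 395 CPM against 51.6 and 38.6 CPM there, highest in the pig with the most macrophage-like nuclei. Without the finer cluster that held obese nuclei alone the same 3 genes were called, at 4.90 for LPL (SE 0.90), 2.93 for PPARG (SE 0.44) and 2.58 for PLIN2 (SE 0.46). Without obese pig 3 or either control pig no gene at all was called in macrophage-like nuclei.

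Of mRNAs known to be destabilised by ZFP36 proteins, 3 of 21 fitted rose and 1 fell in smooth muscle-like nuclei, with a median of 1.17, beside 0.0815% of all genes called lower. DUSP1, a MAP kinase phosphatase, stood at 118, 78.9 and 254 CPM against 24.6 and 15.4 CPM (2.89, SE 0.52), and MYC (2.35, SE 0.41) and VEGFA (1.95, SE 0.35) rose as well. In fibroblast-like nuclei 1 of 14 was called (list median 1.36), and in endothelial-like nuclei 5 of 16 rose (median 0.69), led by PTGS2, IL6 and FOS (2.63). DUSP1 and FOS are also on the immediate early list. Of 27 genes of the CCR4-NOT and decay machinery 0 were called in smooth muscle-like nuclei (median 0.00), and BTG2, which brings the deadenylase to mRNAs and is itself an immediate early gene, was the 1 of 21 called in endothelial-like nuclei (1.72, list median -0.26), a share near the 5.92% of all genes called higher there. The kinases, phosphatases and 14-3-3 proteins that control ZFP36 activity gave 0 of 19 called in smooth muscle-like nuclei (median 0.20) and 0 of 15 in endothelial-like nuclei. Other AU-rich binding proteins gave 0 of 18 (median 0.00) and 0 of 13, and in macrophage-like nuclei IGF2BP3 was the 1 of 15 called (-3.41, SE 0.56), beside 0.828% of genes called lower there.

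Receptors and factors known to induce CEBPB and CEBPD gave 1 of 16 called in smooth muscle-like nuclei (median 0.29). This was OSMR, the oncostatin M receptor, at 131, 84.6 and 82.6 CPM against 29.5 and 30.7 CPM (1.66, SE 0.28). In endothelial-like nuclei 6 of 16 rose, led by EGR1 (2.76), TLR4 (2.08) and STAT3 (1.80). Immediate early genes, which answer a stimulus without new protein synthesis, gave 4 of 21 in smooth muscle-like nuclei (median 1.45): DUSP1, KLF2 (2.88, SE 0.30), FOSL2 (2.10, SE 0.31) and NR4A3. KLF2, a shear-responsive factor, stood at 38.5, 28.7 and 33.5 CPM against 4.43 and 4.33 CPM. On the same list 3 of 19 were called in fibroblast-like nuclei, ATF3, KLF4 (2.24) and FOSL2 (2.20), and 12 of 19 in endothelial-like nuclei, led by ATF3, FOSL2 (3.28) and FOSB (2.85). Heat shock genes gave 0 of 13 called in smooth muscle-like nuclei (median 0.89), without the unnamed cluster led by such genes, and 0 of 12 in endothelial-like nuclei. These counts also rested on single pigs: smooth muscle-like nuclei gave 1, 2 and 2 called genes in all without obese pig 1, control pig 1 and control pig 2, and fibroblast-like nuclei gave 0 each time. In endothelial-like cluster 14 alone no gene was called.

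**Figure D5:**
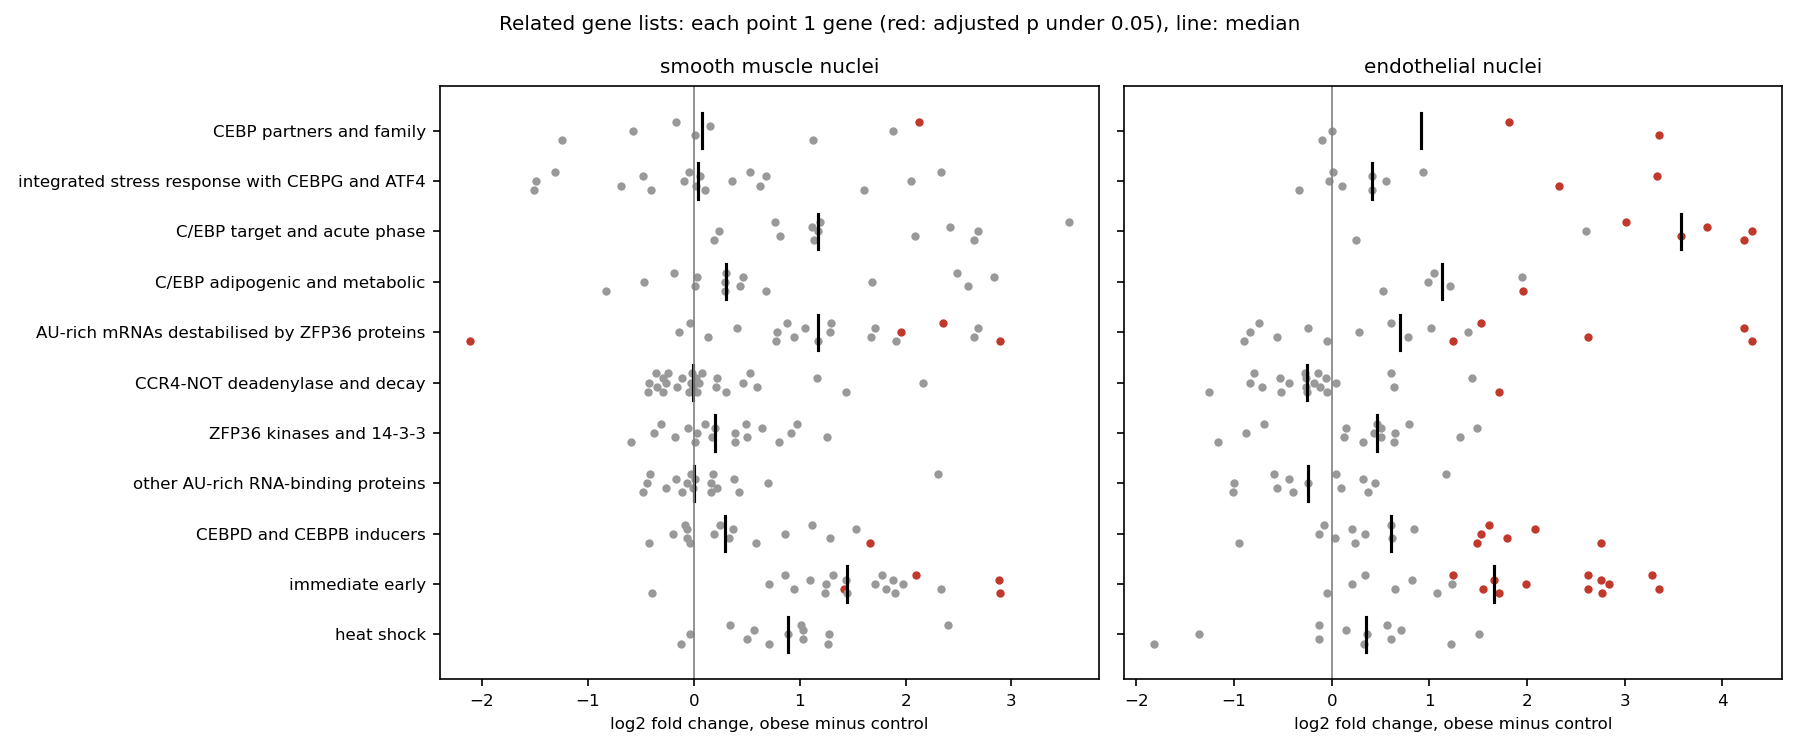
Log2 fold change (obese minus control) of each gene fitted on 11 lists of related genes, in smooth muscle-like and endothelial-like nuclei, with 1 point per gene, red where the adjusted p was under 0.05, and a line at the list median. The immediate early list has its median at 1.45 and 1.66, and the CCR4-NOT list at 0.00 and -0.26.

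Likeness of pattern was measured as Pearson's r of log2(CPM + 1) over 35 profiles, 7 classes in each of 5 pigs that share libraries and depth, against 7865 genes, and it includes the diet difference. ZFP36 was most like FOSL2 (r = 0.884), and STAT3 (0.843), JUNB (0.841) and ZFAND5 (0.834) were also among its 5 nearest genes. CEBPD was most like MORF4L2 (0.858), PEA15, TNFRSF1A, THBS1 and ETS2, and CEBPB was most like IFRD1 (0.759), RNF19A, TGFB3, THBS1 and ZFAND5. ZFP36L2 was most like XIAP (0.749), SETDB2, HSPA8, CGGBP1 and TAF4, and ZFP36L1 was most like PACSIN2 (0.727), ARID5A, EPS8, RNF122 and COTL1. CEBPG lay nearest to NUS1 (0.808), SAR1A, DNAJC9, CTSS and DNAJC2, and CEBPA nearest to TNFSF15 (0.867), TRPM2, the macrophage scavenger receptor MSR1 (0.807), SLC27A6 and SHC3. Among the members themselves CEBPD and ZFP36 were the closest pair (0.651), followed by CEBPA with CEBPG (0.569) and CEBPB with ZFP36 (0.561). The ZFP36 paralogs were less alike, with r = 0.459 for ZFP36 and ZFP36L1, 0.248 for ZFP36 and ZFP36L2, and 0.0617 for ZFP36L1 and ZFP36L2.

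Reference sequence was read for the members from RefSeq, pig assembly Sscrofa11.1, with 7 of 7 found. The C/EBP genes lie at chr6:43083200-43085884 (CEBPA, minus strand), chr17:51722633-51723673 (CEBPB, plus), chr4:79872863-79874481 (CEBPD, plus) and chr6:43164902-43175002 (CEBPG, plus). The ZFP36 genes lie at chr6:48063732-48066235 (ZFP36, plus), chr7:92490069-92495864 (ZFP36L1, minus) and chr3:97200395-97203094 (ZFP36L2, plus). The 250 bases before the annotated start are shown for ZFP36L2 (chromosome 3, plus strand, chr3:97200145-97200394) and ZFP36 (chromosome 6, plus strand, chr6:48063482-48063731), the members with the largest fold changes fitted in smooth muscle-like nuclei (2.43 for ZFP36 and 0.26 for ZFP36L2 in endothelial-like nuclei). Each gene has 2 exons. Capitals mark the GC box GGGCGG on either strand, the site of SP1 and related factors.
ZFP36L2: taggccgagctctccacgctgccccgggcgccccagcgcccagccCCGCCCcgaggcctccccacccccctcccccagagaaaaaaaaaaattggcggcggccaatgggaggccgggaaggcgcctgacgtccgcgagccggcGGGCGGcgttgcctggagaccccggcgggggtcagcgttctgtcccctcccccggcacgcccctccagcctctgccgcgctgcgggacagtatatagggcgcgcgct
ZFP36: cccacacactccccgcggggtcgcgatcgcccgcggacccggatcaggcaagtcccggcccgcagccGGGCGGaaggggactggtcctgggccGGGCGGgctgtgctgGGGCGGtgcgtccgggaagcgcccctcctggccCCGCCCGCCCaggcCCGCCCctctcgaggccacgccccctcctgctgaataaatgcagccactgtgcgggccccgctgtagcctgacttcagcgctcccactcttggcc
ZFP36 holds 6 GC boxes, of which one pair overlaps, and ZFP36L2 holds 2. The motif occurred in 6 of the 7 members and in 45.9% of 19556 promoter windows of the same length. Of the other motifs searched on both strands, the cAMP response element TGACGTCA (1.70% of windows), the AP-1 site TGANTCA (5.27%) and the EGR site GCGGGGGCG (5.68%) had no match in any member. The C/EBP half-palindrome TTGCNNAA (8.22%) and the heat shock element GAANNTTC (5.45%) matched in ZFP36L1, and the STAT site TTCNNNGAA (6.12%) in CEBPD. TATAAA (9.77%) matched in CEBPB, whose gene model of 1041 bases is coding sequence alone, so its start is not a transcription start. A match is only a match of letters, and a window without one says nothing of the factor.

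The ZFP36 proteins bind the nonamer TTATTTATT (in DNA letters) in mRNA, and it was searched in annotated 3' UTRs because ZFP36 is known to act on its own mRNA. Of genes with a 3' UTR of at least 500 bases, 344 of 12177 (2.825%) held it in the last 500 bases. ZFP36 and ZFP36L1 each held 1 match, CEBPA, CEBPD, CEBPG and ZFP36L2 (annotated 3' UTR of 373 bases) held none, and CEBPB has no annotated 3' UTR. Of the list of AU-rich mRNAs, 11 of 26 with an annotated 3' UTR held it anywhere in it, among them DUSP1 and VEGFA, which rose in smooth muscle-like nuclei, and PTGS2, which rose in endothelial-like nuclei. MYC and IL6 held no match. The 11 of 26 counts a match anywhere in a 3' UTR of any length, and the PTGS2 match lay outside the last 500 bases. The 2.825% is therefore no background for it, and no share of all genes was taken on that measure. The 29 bases around each match are shown, with the nonamer in capitals, for the 2 members and these 3 mRNAs.
ZFP36: tatgacgactTTATTTATTctaatagatt
ZFP36L1: aactgttggaTTATTTATTttagaaattt
DUSP1: ggacttgattTTATTTATTtttgtgtcgg
VEGFA: ttgttatcatTTATTTATTggtgctactg
PTGS2: ttgatcatatTTATTTATTtatatgaact
They lie at chr6:48066039-48066067 (plus strand), chr7:92490429-92490457 (minus), chr16:51460782-51460810 (plus), chr7:38762081-38762109 (plus) and chr9:127851806-127851834 (minus), in that order.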

How the data were processed

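Single-nucleus RNA was counted in 5 libraries of Ossabaw pig abdominal aorta, 3 obese and 2 control. Per the labels the authors mapped reads with Cell Ranger and deposited UMI counts, whole numbers for each gene in each barcode, against a genome build named Sscrofa11. Per the submitters' processing notes Cell Ranger was version 5.0, and Seurat 5.0 was used for later steps that the count files do not hold. The labels call the libraries replicates, each with its own droplet reaction, and do not state in words that each is a separate pig. They were taken as 1 pig each, and p-values measure only the spread between these libraries.

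Of 45580 barcodes, 77 were removed for having under 300 genes or over 5% of UMIs from mitochondria. The automatic Scrublet threshold marked 2 doublets, so the barcodes with the highest scores were removed at the expected rate of 0.8% per 1000 barcodes (3522). Nuclei were clustered with scanpy 1.11.5 (3000 variable genes, 30 principal components, 20 neighbours, Leiden resolution 1.0), which gave 21 clusters. A cluster was named for the leading type among those with at least 3 raised markers and a mean marker level of at least 0.4. That level runs on a scale from 0 at the 25th percentile of clusters to 1 at the highest. The unnamed cluster led by heat shock genes had 9 smooth muscle markers raised but a level of 0.369. Cluster 5 (743, 499 and 1330 obese and 463 and 55 control nuclei) had 4 pericyte markers raised but a level of 0.301. Both were therefore left unnamed. Fibroblast-like cluster 16 (7 fibroblast markers raised) had a mean marker level of 0.602, against 0.608 for adipocyte markers, of which 0 were raised. A rule added after values were seen let 1 striated muscle marker, ACTN2, lead smooth muscle-like cluster 0. Counts were summed per pig and class.

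Sums were tested with edgeR 4.0.16 (TMM, filterByExpr, quasi-likelihood F-test, Benjamini-Hochberg over all genes tested). Differences between classes were tested as the class by diet interaction with the pig as a block. With 3 and 2 libraries, 3 residual degrees of freedom remained. Alternatives were other size factors, no filter, DESeq2 1.42.0, limma-voom (limma 3.58.1), each pig left out, a replicate block, no doublet removal, resolution 2.0 and clustering without the members. Adding the unnamed cluster, leaving out cluster 0 fitting each endothelial-like and fibroblast-like cluster alone, and leaving out macrophage-like nuclei of finer clusters without control nuclei were chosen after seeing the data. The fits were tested on simulated counts.

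The members and all lists were chosen with earlier results of these data known. All 7 members are named in each class. From each other list up to 3 called genes per class are named, by the size of the log2 fold change, and for each member the 5 genes of most like pattern among those with a mean of at least 10 CPM. A few genes that these rules would name are not reported here. Nuclear RNA holds unspliced transcripts, 3' counting reads only transcript ends, and intervals cover counting error only. No file gave protein sequences, and the reference build may differ from that of the counts, so genes were matched by symbol.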

Additional observations from a re-analysis of the deposited data

Results flagged for a closer look

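ZFP36L2 differed between classes under the same contrast: its diet effect in smooth muscle-like nuclei exceeded that in endothelial-like nuclei by 3.21 on the log2 scale (SE 0.45), by the edgeR interaction fit with the pig as a block. The choice of members already rested on this difference, so it is no independent result.

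ZFP36L1 values differed in sign between classes. Every obese pig was above both control pigs in smooth muscle-like nuclei (log2 fold change 1.21) and in endothelial-like nuclei (1.95), and every obese pig was below both control pigs in macrophage-like nuclei (-1.53). Of these only the endothelial-like value was called, and the groups overlapped in each endothelial-like cluster alone. The difference between macrophage-like nuclei and the other classes was not tested. The endothelial-like value was 0.38 in cluster 14 alone, and the macrophage-like control values rest on 82 and 39 nuclei. Without the finer cluster that held obese nuclei alone the macrophage-like value was -1.19. Groups of 3 and 2 pigs are too small for a check for single outlying libraries.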

How the results depend on the processing

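Of 595 alternative values for the members' fold changes and class differences, 499 kept direction and side of the threshold, 34 kept direction and lost the call, 38 gained one and 24 reversed. Of 350 alternative levels and shares, 316 moved by less than 1 SD. Clustering without the members gave the same class for 100% of nuclei, so its values in these totals repeat the main ones. Leaving out a control pig leaves 1, assumed to vary like the obese pigs, and the causes of the changes below were not tested.

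Counts of genes called moved most. Over all nuclei edgeR called 1 gene, against 559 with no filter and 795 by DESeq2, and 0 to 351 with a pig left out. Smooth muscle-like nuclei gave 74, against 958 with no filter, 616 by DESeq2, 39 by limma-voom, 40 without doublet removal, 46 at resolution 2.0, 16 with the unnamed cluster and 1 to 158 with a pig left out. Fibroblast-like nuclei gave 15, against 334, 96 by DESeq2, 40 without doublet removal, 0 in cluster 16 and 0 to 218. Endothelial-like nuclei gave 564, against 1101 with no filter, 203 to 551 with a pig left out, 0 in cluster 14 and 49 in cluster 17. Macrophage-like nuclei gave 127, against 675, 408 by DESeq2, 51 by limma-voom, 205 without doublet removal and 0 to 195, and could not be fitted at resolution 2.0. The smooth muscle minus endothelial difference gave 359, against 645 without doublet removal, 48 and 150 for clusters 14 and 17, and 168 to 557. Smooth muscle minus fibroblast gave 2, against 200 with no filter, 1 at resolution 2.0 and 0 to 75, and endothelial minus fibroblast gave 90, against 380 with no filter and 1 to 93.

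Only 2 replicate numbers are shared between the groups. For same-numbered pigs the r of their deviations across genes was -0.0744 to 0.0755 over the 4 classes. With 2 control pigs, each value for control pig 1 is the negative of that for control pig 2. Whether the numbers pair pigs could therefore not be decided. With a replicate block the counts were 362 for all nuclei, 29 for smooth muscle-like, 343 for fibroblast-like and 10 for macrophage-like nuclei, with 1, 3 and 0 members called in these 3 classes.

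Some reversed values were near 0. Others were not, among them ZFP36L1 for smooth muscle minus endothelial with cluster 14 or 17 alone. CEBPG in smooth muscle-like nuclei was -0.0036 with other size factors, -0.073 with no filter, -0.0038 by DESeq2, -0.0073 without doublet removal, -0.0049 at resolution 2.0 and -0.080 to 0.091 with a pig left out. In endothelial-like nuclei CEBPG was 0.0087 with the replicate block and -0.41 to 0.019 with a pig left out, and ZFP36L2 was -0.52 to 1.11 with a pig left out and -0.48 in cluster 17. For smooth muscle minus endothelial, ZFP36L1 was 0.87 and 1.38 for clusters 14 and 17 and -1.19 to 0.0995 with a pig left out, and CEBPG was -0.72 for cluster 14. For smooth muscle minus fibroblast, ZFP36 was -0.077 without doublet removal and -0.16 to 0.36 with a pig left out, and CEBPB was -0.74 to 0.99. For endothelial minus fibroblast, ZFP36 was -0.56 to 0.074 and CEBPB -1.62 to 0.80 with a pig left out. With the filter on low counts CEBPA was fitted over all nuclei and in no single class, so its values within classes are a description.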

Other observations

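Some members were also counted in small populations outside the 4 classes fitted, given as values with no comparison. Pericyte-like nuclei held CEBPB at 74.3, 66.6 and 53.6 CPM in the obese pigs and 24.2 and 25 CPM in the control pigs, and ZFP36L2 at 64.1, 142 and 60.7 CPM against 17.6 and 15.0 CPM. Schwann cell-like nuclei held ZFP36L1 at 149, 123 and 133 CPM against 40.4 and 65.3 CPM. T or NK cell-like nuclei held ZFP36L1 at 79.8, 68.6 and 26.8 CPM against 77.7 and 78.8 CPM. Over the 19 clusters with at least 20 nuclei in every pig, every obese pig was above both control pigs for ZFP36L2 in 15, for ZFP36 in 15, for CEBPD in 14, for CEBPB in 13, for ZFP36L1 in 8, and for CEBPG and CEBPA in 2 each, beside 8.03% to 19.7% of genes with at least 50 counts. No such filter was set for the members. Among the clusters counted, CEBPD had 10 UMIs in T or NK cell-like nuclei, and CEBPD and CEBPG had 21 and 17 in Schwann cell-like nuclei.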
